A study of Mus musculus with 24 samples.

Results

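The immediate early genes examined here are Egr1, Egr2, Egr3 and Egr4, Nr4a1, Nr4a2 and Nr4a3, Arc, Npas4 and Ier2, 10 of the 18193 genes that have a probe set naming a single gene symbol in the platform annotation. All probe sets that name only one of these genes were taken, which gave 19 of 34945. A probe set was tested if its mean was at least 4 on the log2 scale in striatum or in cerebellum. That limit left 13 of the 19, from 9 of the 10 genes, and only Egr4 had none. Nr4a2 was lower in the cerebellum of Q111 mice, by 1.27 log2 (2.41-fold) on 1 probe set past the threshold and by 1.41 and 1.79 on a pair of probe sets that narrowly missed it. In striatum the same probe sets read 0.17 to 0.63 higher in Q111, none past the threshold. None of the other members passed the threshold for genotype in either tissue, and most of them were far higher in striatum than in cerebellum.

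The mice were homozygous for a huntingtin allele with an expanded CAG repeat, HdhQ111/HdhQ111 (here Q111), or homozygous for the wild-type allele, Hdh+/Hdh+, whose genotype the labels also give as Q7/Q7. Total RNA of striatum and of cerebellum was measured on Affymetrix mouse arrays, 6 per genotype and tissue and 24 in all. The labels give one age range, 3 to 10 weeks, for all 4 groups, and neither sex nor whether both tissues came from the same animals. Replicates are labelled as biological, but no label ties them to individual mice, and p-values therefore cover the spread among arrays, part of which may be technical. The knock-in allele is present in all cells of the animal. The labels name no treatment or stimulation, and the effect of handling and dissection on these genes was not tested.

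Immediate early genes are transcribed within minutes of synaptic activity, when calcium and kinase signals reach transcription factors such as CREB, SRF and MEF2 that already sit in the nucleus, with no new protein needed. Egr proteins are zinc finger transcription factors, Nr4a proteins are orphan nuclear receptors that act without a known natural ligand, Npas4 is a neuron-specific transcription factor, Arc is a cytoplasmic protein that promotes removal of AMPA receptors from synapses, and Ier2 encodes a nuclear protein of the early growth response. In striatum several of them report cortical and dopaminergic input to projection neurons, and in cerebellum they are induced in granule and other neurons.

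The 3 Nr4a promoters are shown because Nr4a2 gave the largest genotype difference and because all 3 hold, several times over, the letters of the CRE half-site that CREB family proteins can bind. RefSeq's GRCm38.p6 promoter table held entries for 6 of the 10 genes; Egr1, Egr3, Arc and Ier2 were not matched. Each run is the 250 bases before the transcription start, 5′ to 3′ on the strand of the gene, with capitals for each CRE half-site (TGACG, or CGTCA on the other strand). The windows lie at chr15:101266596-101266845 on the plus strand for Nr4a1, chr2:57124004-57124253 on the minus strand for Nr4a2 and chr4:48045055-48045304 on the plus strand for Nr4a3.
Nr4a1: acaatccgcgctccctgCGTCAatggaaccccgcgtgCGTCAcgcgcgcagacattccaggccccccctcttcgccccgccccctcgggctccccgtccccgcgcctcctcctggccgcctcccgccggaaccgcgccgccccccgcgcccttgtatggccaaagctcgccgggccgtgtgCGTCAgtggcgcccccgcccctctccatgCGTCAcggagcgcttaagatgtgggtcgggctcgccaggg
Nr4a2: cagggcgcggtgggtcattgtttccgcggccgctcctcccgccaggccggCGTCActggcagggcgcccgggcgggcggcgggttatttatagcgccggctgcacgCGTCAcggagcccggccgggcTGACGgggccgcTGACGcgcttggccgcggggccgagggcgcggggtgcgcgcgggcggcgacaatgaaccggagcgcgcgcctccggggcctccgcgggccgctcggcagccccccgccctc
Nr4a3: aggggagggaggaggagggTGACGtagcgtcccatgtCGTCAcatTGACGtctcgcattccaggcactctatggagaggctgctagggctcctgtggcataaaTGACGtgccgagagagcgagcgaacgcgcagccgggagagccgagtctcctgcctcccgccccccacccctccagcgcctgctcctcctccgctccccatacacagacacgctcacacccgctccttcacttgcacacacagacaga

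Each of the 3 Nr4a windows holds 4 half-sites. Of the 32851 promoter windows of the same length in the table, 17.8% hold at least 1 and 0.137% hold 4 or more. The 3 windows are shown because of these half-sites, and the limit of 4 is their own count. That share is therefore a description and no test of enrichment. The Npas4 and Egr4 windows hold 2 each, and 3 of the 5 overlapping or nearby Egr2 windows hold 2 beside a CArG box, the binding sequence of SRF, which 1.47% of all windows hold. The full palindrome TGACGTCA, the Egr site GCGTGGGCG and the Nr4a site AAAGGTCA, each searched on both strands and present in 1.55%, 0.536% and 1.34% of all windows, were in none of the windows of these 6 genes. A half-site lies within each full palindrome, so those counts overlap. These matches describe the letters of the windows and do not show that a factor binds there.

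Values are GCRMA levels, which are corrected for background by probe sequence and normalised across arrays, read as log2. The arrays had medians of 3.38 to 3.51, and the tissue labels held: all 8 measured markers of striatal projection neurons were higher in striatum, and all 7 of granule neurons and all 4 of Purkinje cells were higher in cerebellum. The lowest deposited value was 0.36 on the striatal arrays and -0.77 on the cerebellar ones. The sources used here do not say whether the arrays of both tissues were normalised in 1 run, so a level set across tissues carries that doubt. Within a tissue, the mean over replicate numbers 1 to 3 and that over numbers 4 to 6 lay close together. The SD of their difference over probe sets was 0.0534 in striatum and 0.0512 in cerebellum, where the spread between arrays would give 0.146 and 0.139. No label explains this, and values within each set of numbers are given beside the main results. In bulk tissue, fewer cells of a type and less RNA per cell cannot be told apart.

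Nr4a2 encodes the nuclear receptor also known as Nurr1, which dopamine neurons need to develop. Its probe set 1450750_a_at passed the threshold in cerebellum. Wild-type cerebellum read 5.63 at the lowest, 6.27 at the median and 6.78 at the highest array, and Q111 cerebellum 4.65, 4.93 and 5.26. All 6 Q111 arrays lay below all 6 wild-type arrays. The means were 4.94 ± 0.23 and 6.21 ± 0.41 (SD, n = 6 each), a difference of -1.27 (SE 0.20; limma with Benjamini-Hochberg adjustment over all probe sets, adjusted p = 0.00248). The two-sided exact permutation p was 0.00216, the smallest that 6 against 6 arrays allow. The difference was -1.19 within numbers 1 to 3 and -1.34 within numbers 4 to 6, where 3 against 3 arrays cannot give an exact p below 0.1. The lack of overlap within each set follows from that over all arrays. Whichever of the 24 arrays was left out, the difference stayed past the threshold, with adjusted p between 3.18e-04 and 0.0107.

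In striatum the same probe set went the other way. Wild-type striatum read 5.57 at the lowest, 5.89 at the median and 6.31 at the highest array, and Q111 striatum 5.675, 6.64 and 7.11. The groups overlapped through Q111 array 4, the lowest of its group, while the other 5 Q111 arrays lay above every wild-type array. The difference of 0.63 (SE 0.20) missed the threshold (limma adjusted p = 0.0846; exact permutation p = 0.026), and without Q111 striatum array 4 it was 0.80 and passed (adjusted p = 0.0171). The genotype difference in striatum minus that in cerebellum, the interaction, was 1.89 (SE 0.28, limma adjusted p = 0.00737). This interaction is a 3.72-fold ratio between the genotype ratios of the tissues, not between tissue levels. It passed without each array in turn and was 1.81 and 1.98 in numbers 1 to 3 and 4 to 6 alone, where it missed the threshold (adjusted p = 0.0687 and 0.147). In wild-type mice striatum minus cerebellum was -0.29 (95% interval -0.70 to 0.13, limma adjusted p = 0.202), and in Q111 mice it was 1.61 (adjusted p = 1.28e-07), with no overlap. The 2 tissue contrasts share their arrays with the genotype comparisons.

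Nr4a2 had 5 further probe sets, and the 2 brightest of them also read lower in Q111 cerebellum. Suffixes of Affymetrix names mark how probes match: those ending in _a_at match several transcripts of one gene, and those ending in _s_at can match transcripts of more than one gene. The brightest, 1455034_at, which stands for the gene, read 6.33, 7.48 and 8.25 (lowest, median and highest array) in wild-type cerebellum and 5.27, 5.99 and 6.51 in Q111 cerebellum. Q111 arrays 4 and 5 lay above wild-type array 5, and all 6 Q111 arrays lay below the other 5 wild-type arrays. Its difference of -1.41 (SE 0.32) gave a limma adjusted p of 0.05002, just over the limit of 0.05, with all 6 Q111 arrays below the wild-type mean (exact permutation p = 0.00649). Probe set 1447863_s_at read 4.91, 6.91 and 7.37 in wild-type cerebellum and 4.27, 4.65 and 5.37 in Q111 cerebellum. Its difference was -1.79 (SE 0.42, limma adjusted p = 0.0546), and here too the groups overlapped only through wild-type array 5. Without that array both were called, at -1.61 (adjusted p = 0.0223) and -2.11 (adjusted p = 0.0127). Without Q111 striatum array 4, which enters through the shared estimate of the spread, both were called too (adjusted p = 0.0259 and 0.0281). Probe set 1455034_at was also called without wild-type cerebellum array 3 (-1.53, adjusted p = 0.0471) and without Q111 striatum array 2 or 5 (adjusted p = 0.0478 and 0.0499).

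In striatum these 2 probe sets differed by 0.25 (95% interval -0.42 to 0.92) and 0.17, with overlap, and Q111 arrays spread more widely than wild-type ones. For 1455034_at Q111 striatum read 6.21, 7.78 and 8.15 against 6.81, 7.35 and 7.41 in wild type, an SD of 0.80 against 0.26. For 1447863_s_at it read 3.76, 5.58 and 6.47 against 4.49, 5.19 and 5.83. In both, the Q111 range reached below and above that of wild type. After subtracting group means, the 3 probe sets varied together over the 12 arrays of a tissue, at r of 0.74 to 0.89 in striatum and 0.87 to 0.93 in cerebellum. The fourth tested probe set, 1433423_at, lay near the filter in every group, at means of 3.85 to 4.22. It differed by 0.11 in cerebellum (limma adjusted p = 0.548) and by 0.03 in striatum. Of the untested pair, 1450749_a_at averaged 3.50 in wild-type and 3.34 in Q111 cerebellum with no overlap, and 1433422_at averaged 1.89 to 1.94 in the 4 groups.

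**Figure D1:**
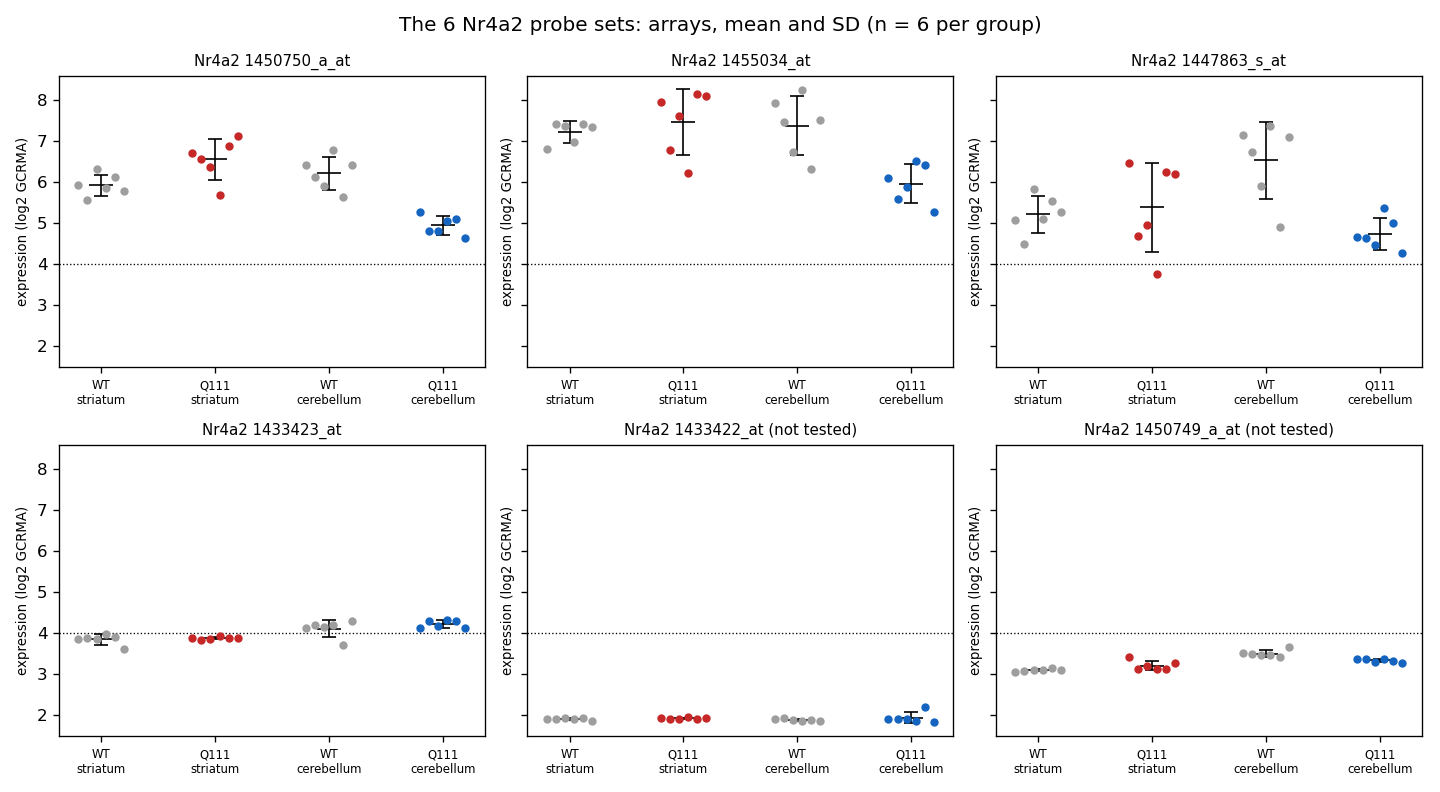
Log2 GCRMA value of each array (points) for the 6 Nr4a2 probe sets in the 4 groups, with group mean and SD (n = 6); the dotted line is the filter at 4. In the 3 upper panels Q111 cerebellum lies lowest, at means of 4.94, 5.96 and 4.74, and the 3 lower panels lie near or under 4.

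Nr4a1, which encodes the receptor Nur77, read 6.66, 7.26 and 7.78 (lowest, median and highest array) in wild-type cerebellum and 5.68, 6.66 and 7.19 in Q111 cerebellum. All 6 Q111 arrays lay below the wild-type mean, although the ranges overlapped. The difference of -0.67 (SE 0.28, 95% interval -1.26 to -0.08) missed the threshold (limma adjusted p = 0.289; exact permutation p = 0.0281), and it was -0.60 in numbers 1 to 3 and -0.74 in numbers 4 to 6. In striatum Nr4a1 read 9.35, 10.19 and 10.76 in wild type and 8.96, 9.46 and 10.60 in Q111, a difference of -0.49 (SE 0.28, limma adjusted p = 0.372). Nr4a1 thus had negative differences in both tissues, and the interaction of 0.19 (SE 0.40) had an adjusted p of 0.924.

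Nr4a3, which encodes the receptor NOR-1, had 1 probe set above the filter and the widest spread of the Nr4a genes within groups. In cerebellum it read 4.70, 6.79 and 7.33 in wild type and 4.87, 6.05 and 6.21 in Q111. The Q111 range lay inside that of wild type, whose array 5 was lowest of all, although each Q111 array lay below the wild-type mean. The difference was -0.65 (SE 0.43, 95% interval -1.53 to 0.24; limma adjusted p = 0.523), and in numbers 4 to 6 it was -0.29. In numbers 1 to 3 the groups did not overlap, with means of 5.67 in Q111 and 6.67 in wild type. In striatum it read 6.64, 7.84 and 8.77 in wild type and 6.88, 8.05 and 8.95 in Q111, ranges that nearly coincided. The difference there was 0.26 (SE 0.43, limma adjusted p = 0.803), with opposite signs in the number sets (0.91 and -0.40). The other 2 probe sets of Nr4a3 read close to 2 in all groups.

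Egr1, which encodes the factor also called Zif268, read 11.36, 11.79 and 12.15 in wild-type striatum and 11.20, 11.55 and 12.07 in Q111 striatum (lowest, median and highest array). The ranges nearly coincided, and the difference was -0.23 (SE 0.18, 95% interval -0.60 to 0.15; limma adjusted p = 0.538). In cerebellum it was -0.08 (SE 0.18, adjusted p = 0.899), from a mean of 8.24 ± 0.37 in wild type and 8.16 ± 0.32 in Q111 (SD, n = 6). Egr2, a factor also needed for peripheral myelin, had 2 probe sets, which disagreed in sign in striatum. Probe set 1427682_a_at read 6.66, 6.77 and 8.03 in wild-type and 6.77, 6.90 and 7.90 in Q111 striatum. Probe set 1427683_at read 6.23, 6.96 and 7.68 in wild-type and 5.72, 6.68 and 7.76 in Q111 striatum. The genotypes overlapped over most of their ranges in both, and the differences were 0.13 (SE 0.19) and -0.26 (SE 0.26), with limma adjusted p of 0.785 and 0.645. In cerebellum both lay under 4 in every group.

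Egr3, which acts downstream of neuregulin and BDNF signals, had the smallest spread in striatum among the 8 members above the filter there, each by its brightest probe set. Probe set 1436329_at read 10.91, 11.13 and 11.51 in wild-type striatum and 11.21, 11.51 and 11.88 in Q111 striatum. All 6 Q111 arrays lay above the wild-type mean, with overlap. The difference of 0.34 (SE 0.11, a 1.27-fold change) missed the threshold (limma adjusted p = 0.101; exact permutation p = 0.0216) and was 0.22 in numbers 1 to 3 and 0.47 in numbers 4 to 6, where the groups did not overlap. With values under 4 set to 4, an alternative chosen after seeing the data, it passed (limma adjusted p = 0.0384). The difference was still 0.34 there. All cerebellar arrays of Egr3 become 4 under that floor and add no spread to the shared estimate. The pass is therefore no further evidence of a striatal difference. Its other probe set read 0.99 to 1.02 on average in the 4 groups. Egr4 averaged 2.60 in wild-type and 2.46 in Q111 striatum, under the filter, and was not tested.

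Arc read 8.27, 9.83 and 10.32 in wild-type striatum and 8.16, 8.95 and 9.80 in Q111 striatum (lowest, median and highest array). Of the 6 Q111 arrays 5 lay below the wild-type mean, and the ranges overlapped, with wild-type array 3 far below the rest of its group. The difference of -0.60 (SE 0.26, 95% interval -1.14 to -0.06) missed the threshold (limma adjusted p = 0.203; exact permutation p = 0.121). Without wild-type array 3 it was -0.86 and passed (adjusted p = 0.0367). In cerebellum Arc read 4.88, 5.13 and 5.26 in wild type and 4.98, 5.15 and 5.78 in Q111, with overlap, and differed by 0.19 (SE 0.26, adjusted p = 0.802), and the interaction was -0.79 (SE 0.37, adjusted p = 0.48).

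Npas4, which is induced selectively by calcium influx, read 3.98, 5.08 and 6.61 in wild-type striatum and 4.43, 4.84 and 6.03 in Q111 striatum. The Q111 arrays lay within the wild-type range, and the difference was -0.22 (SE 0.34, limma adjusted p = 0.786). In cerebellum it averaged 1.44 and 1.24, under the filter. Ier2 was above the filter only in cerebellum, where it read 5.90, 6.24 and 6.73 in wild type and 5.16, 5.86 and 6.29 in Q111. All 6 Q111 arrays lay below the wild-type mean, and the difference of -0.56 (SE 0.24) missed the threshold (limma adjusted p = 0.296; exact permutation p = 0.0303). It was -0.19 in numbers 1 to 3 and -0.93 in numbers 4 to 6, where the groups did not overlap.

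**Figure D2:**
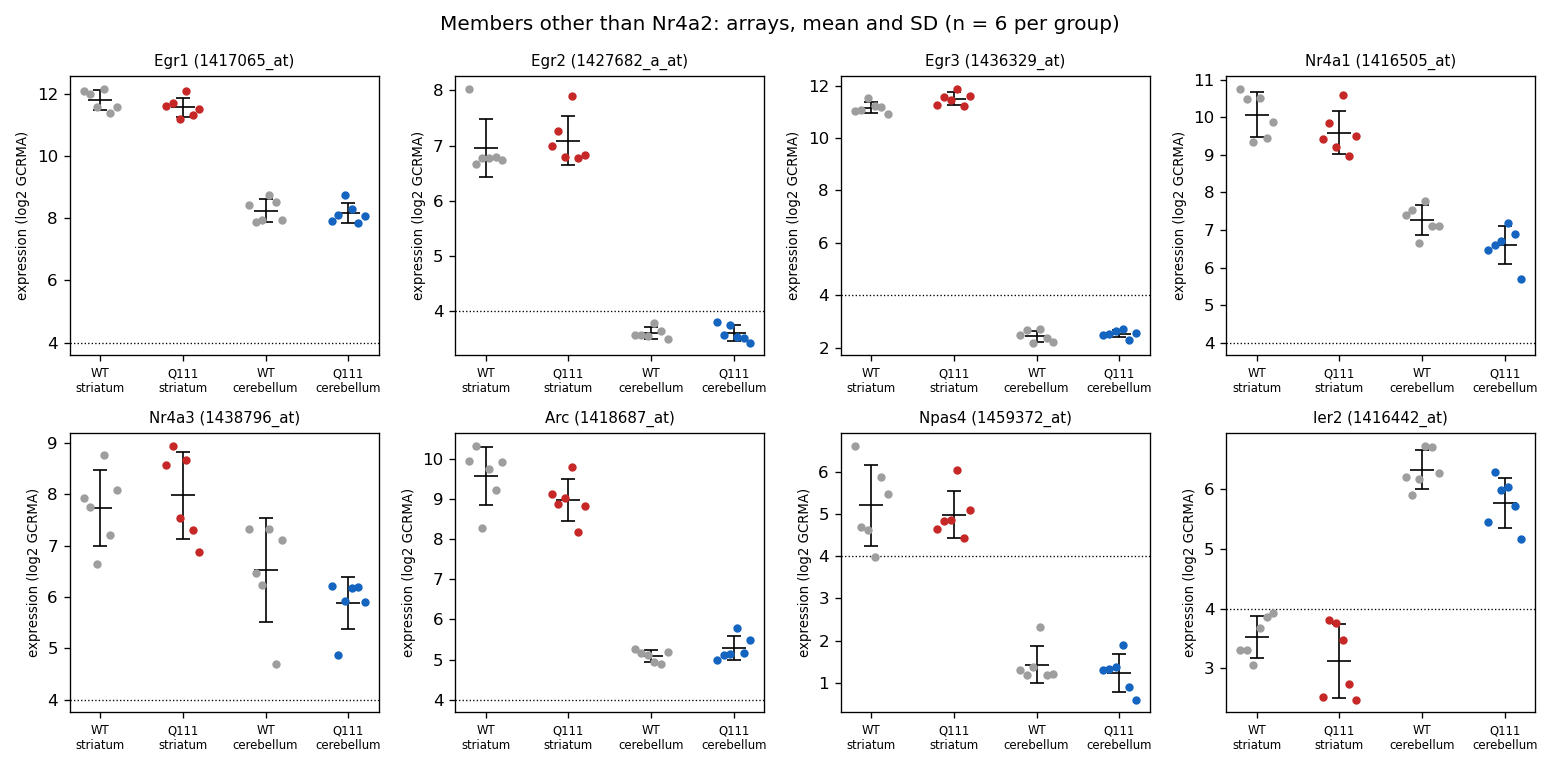
Log2 GCRMA value of each array (points) for 1 probe set each of the other 8 genes that passed the filter, with group mean and SD (n = 6); the dotted line is the filter at 4 and each panel has its own axis. Egr1, Egr2, Egr3, Nr4a1, Arc and Npas4 lie in separate ranges in the 2 tissues, with striatum higher, Ier2 with cerebellum higher, and genotypes overlap in every panel.

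Counted over the 13 tested probe sets, limma called 0 in striatum, where 2.87% of all 20738 probe sets were called, and 1 in cerebellum, where 0.458% were called. At an unadjusted p under 0.05 the members gave 3 in striatum and 5 in cerebellum, and all probe sets gave 3933 (19.0%) and 2867 (13.8%). In striatum 7 differences were positive and 6 negative, with a median of 0.03 against -0.02 over all probe sets. In cerebellum 4 were positive and 9 negative, with a median of -0.20 against -0.05. The interaction called 1 of the 13, where 0.0868% of all were called, with 8 positive and a median of 0.16 against 0.02. At an unadjusted p under 0.05 it gave 4 of the 13 members and 2100 (10.1%) of all probe sets. By the brightest probe set of each of the 9 genes, limma called 0 in each of these 3 comparisons, with 2 in striatum, 3 in cerebellum and 2 in the interaction at an unadjusted p under 0.05. In an alternative that took the mean of all kept probe sets of a gene, Nr4a2 differed by -1.09 in cerebellum and passed the threshold. By that mean it passed neither in striatum nor in the interaction.

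**Figure D3:**
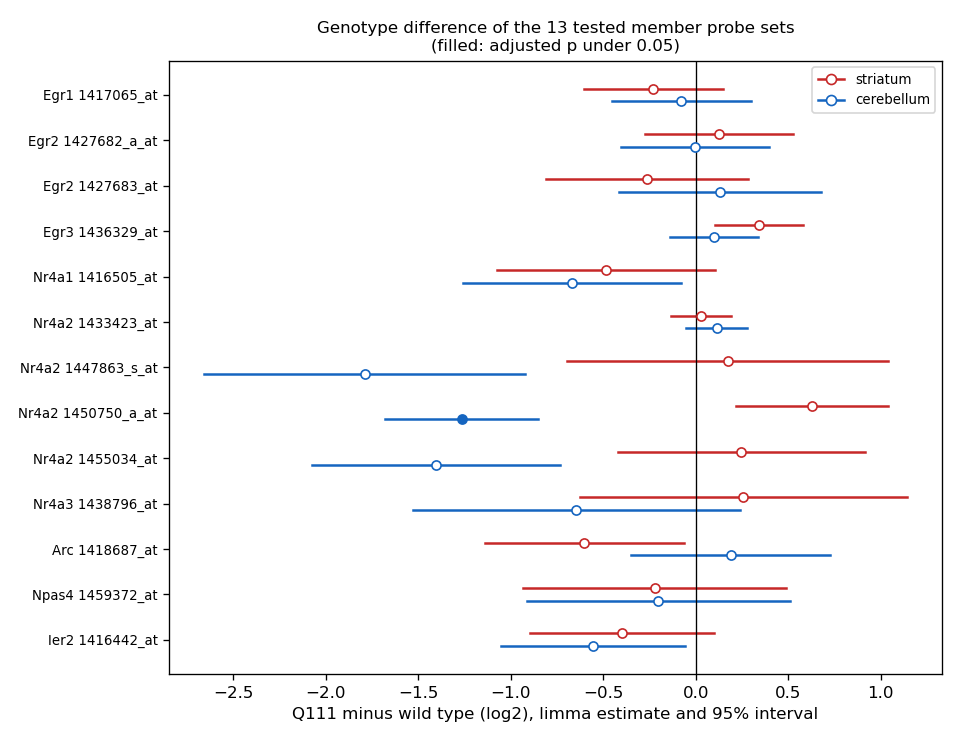
Q111 minus wild type on the log2 scale for the 13 tested probe sets in striatum (red) and cerebellum (blue), with limma's estimate and 95% interval; a filled point has an adjusted p under 0.05. Only Nr4a2 1450750_a_at in cerebellum is filled, at -1.27, and the other 2 bright Nr4a2 probe sets lie at -1.41 and -1.79.

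For most members levels differed far more between tissues than between genotypes. Nr4a2 was the exception: its 3 bright probe sets differed by -0.15, -0.29 and -1.31 between wild-type tissues and by -1.41, -1.27 and -1.79 between genotypes in cerebellum. In wild-type mice 11 of the 13 probe sets passed the threshold, 8 higher and 3 lower in striatum, where 71.8% of all probe sets passed. Egr3, which passed the filter only through striatum, stood apart by 8.71 log2 (SE 0.11, limma adjusted p = 2.89e-26). It averaged 11.15 ± 0.21 in striatum and 2.45 ± 0.21 in cerebellum (SD, n = 6). With values under 4 set to 4 it was higher by at least 7.15. Arc was higher in striatum by 4.48 (SE 0.26, a 22.3-fold difference), Egr1 by 3.55 (SE 0.18, 11.7-fold), and Nr4a1 by 2.81 (SE 0.28). No array of one tissue reached the range of the other for these 4 genes. Over all members 8 of the 13 probe sets did not overlap between wild-type tissues, where 52.2% of all probe sets did not. Egr2 was higher by at least 2.92 on both probe sets and Npas4 by at least 1.21, both being under 4 in cerebellum and kept only through striatum.

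Nr4a3 was higher in striatum by 1.20 (SE 0.43, adjusted p = 0.0152) with overlapping ranges, and without wild-type cerebellum array 5 that difference was 0.84 and missed the threshold (adjusted p = 0.0544). Ier2 was the one member gene lower in striatum by its brightest probe set, by at least 2.33, and Nr4a2 by that measure did not pass (-0.15, adjusted p = 0.692). Of the 9 genes, 7 were therefore higher in striatum and 1 lower, where 32.1% and 41.6% of 10766 genes were. Egr2, Egr3 and Npas4 passed the filter only through striatum, and Ier2 only through cerebellum. Their tissue differences, and the counts between tissues, therefore partly follow from the filter. The same filter was applied to all genes. In Q111 mice 12 of the 13 probe sets passed, 10 higher and 2 lower in striatum, where 71.4% of all did. The probe sets whose call differs between the genotypes were all of Nr4a2: 1450750_a_at and 1455034_at passed only in Q111, and 1447863_s_at only in wild type, and of these differences only that of 1450750_a_at passed as an interaction.

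**Figure D4:**
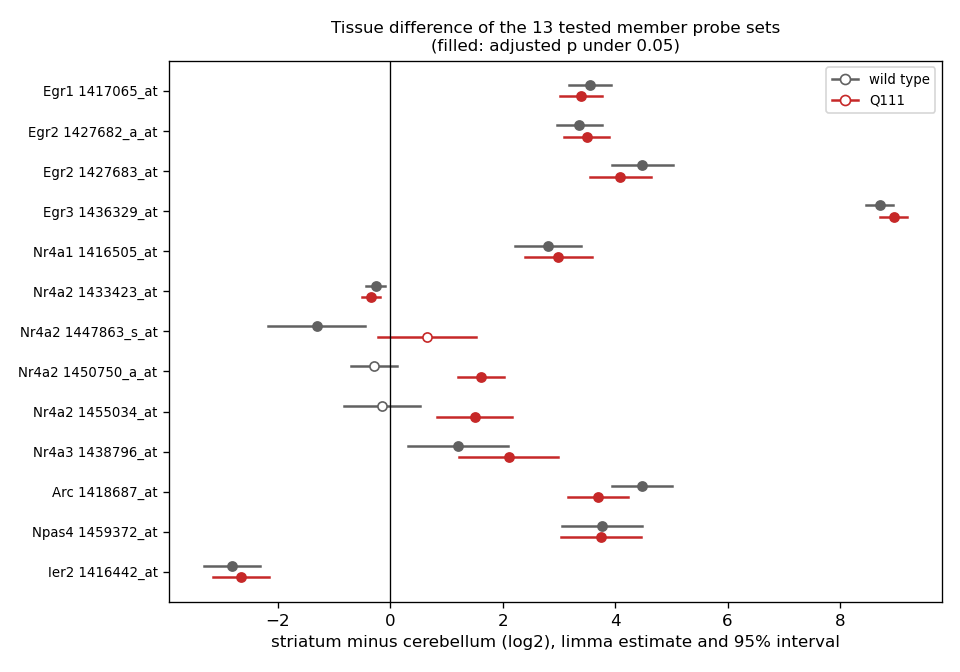
Striatum minus cerebellum on the log2 scale for the 13 tested probe sets in wild-type (grey) and Q111 mice (red), with limma's estimate and 95% interval; filled points have an adjusted p under 0.05. Differences run from -2.81 for Ier2 to 8.71 for Egr3 in wild type, and the genotypes lie apart for Nr4a2 1450750_a_at (-0.29 and 1.61).

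Arrays of one group also differed from each other, and some members varied together. For each tissue the group means were subtracted and every pair of genes that averaged at least 4 there was correlated over the 12 arrays, 43 pairs in all, with permutation p (100000 resamples) adjusted over the 43. The resamples treat the 12 arrays as independent. In striatum Egr1 and Nr4a1 had r = 0.94 (rho = 0.94; permutation p = 1e-05, the smallest these resamples give; adjusted p = 4.30e-04), and r was 0.94 without the 2 arrays farthest from the median. Nr4a1 and Arc had r = 0.81 (rho = 0.83, permutation p = 9.40e-04, adjusted 0.0135), and 0.76 without 2 arrays. Both pairs held within numbers 1 to 3 and 4 to 6, at r of 0.90 and 0.97 for the first and 0.78 and 0.87 for the second. An array high in Egr1 was thus high in Nr4a1 too. Egr2 with Npas4 and with Nr4a1 (r = 0.75 and 0.71, adjusted permutation p = 0.0361 for each) rested on 2 arrays, without which r was 0.09 and 0.28.

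Nr4a2 did not join that set in striatum: its r with each of the other 7 genes was negative, from -0.76 with Nr4a1 to -0.43 with Npas4. Only the first passed by Pearson (adjusted permutation p = 0.0289) and it did not by Spearman (rho = -0.61, adjusted permutation p = 0.141); without 2 arrays r was -0.51. In cerebellum Nr4a2 and Nr4a3 had r = 0.82 (rho = 0.87, permutation p = 3.70e-04, adjusted 0.00795; 0.77 without 2 arrays). Nr4a2 and Nr4a1 had r = 0.76 there (rho = 0.76, adjusted permutation p = 0.0289 by Pearson and 0.0565 by Spearman). Of the 28 striatal pairs 19 were positive, with a median r of 0.28, and of the 15 cerebellar pairs 11 were, with a median of 0.21. Whether a correlation differs between the tissues was not tested.

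**Figure D5:**
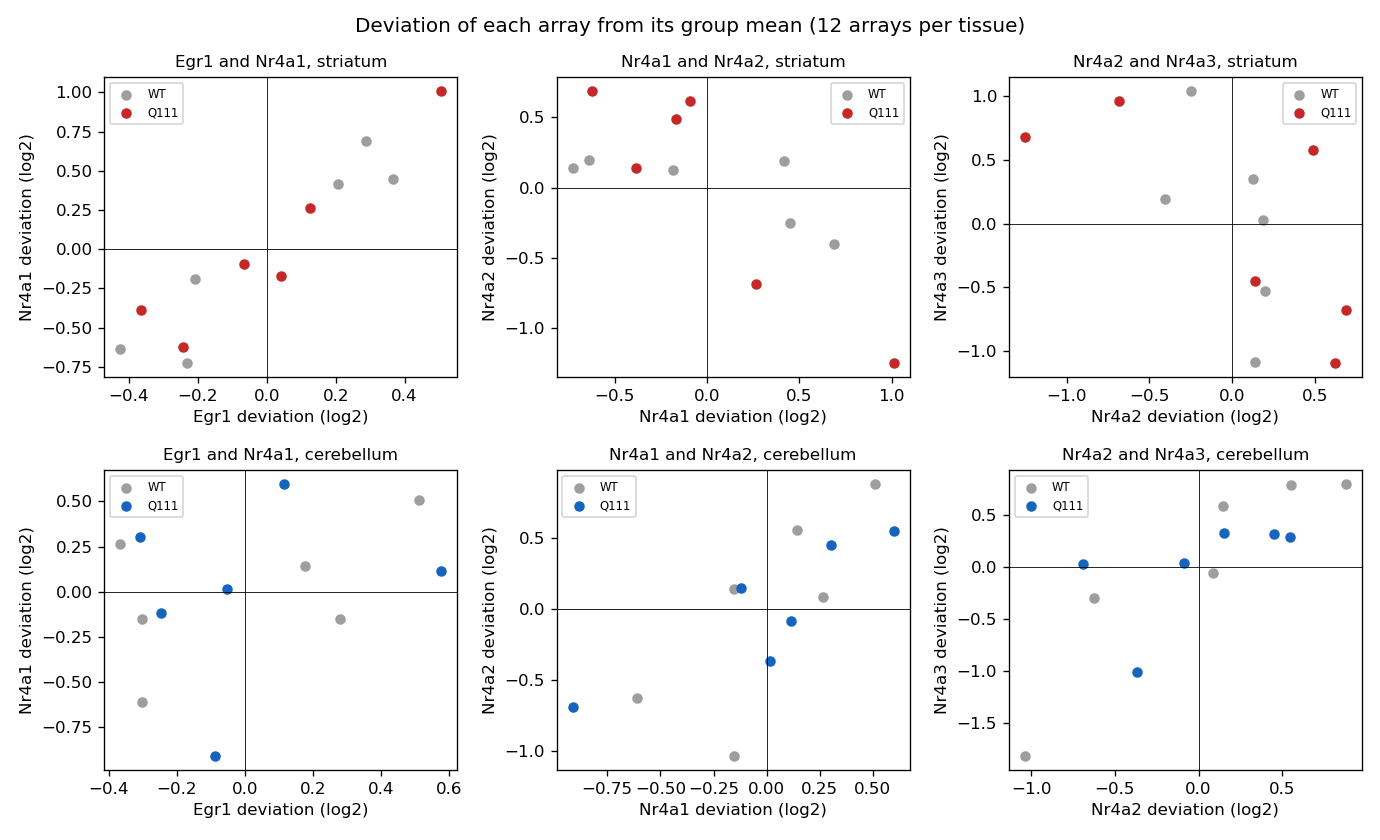
Deviation of each array from its group mean (log2) for 3 pairs of genes, each by its brightest probe set, in striatum (upper panels) and cerebellum (lower panels), with 12 arrays per panel. Egr1 and Nr4a1 rise together in striatum (r = 0.94), and Nr4a2 runs against Nr4a1 in striatum (r = -0.76) and with it in cerebellum (r = 0.76).

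Outside the members, the genes whose deviations were most like theirs over all 24 arrays, as a description, were the following. For Nr4a1 they were Fos, the best-known gene of this class (r = 0.78, rho = 0.70), Olfml3 (r = 0.78) and the cathepsin gene Ctsc (r = 0.75). Fos differed by -1.02 in Q111 cerebellum and -0.36 in Q111 striatum, neither past the threshold (limma adjusted p = 0.265 and 0.696). Olfml3 rose in Q111 striatum (0.53, adjusted p = 0.0203). For Egr1 they were the histone methyltransferase gene Setd2 (r = 0.80), Clptm1 (r = 0.75) and Cldn12 (r = 0.74), and for Arc the GTPase gene Rraga (r = 0.76), Vps54 (r = 0.75) and Tssc4 (r = 0.72). For Nr4a2 they were Vps8 (r = 0.72), the clathrin light chain gene Clta (r = 0.71) and Ttc37 (r = 0.71), and for Ier2 Zfp770, Rc3h1 (r = 0.77 each) and Frmd5 (r = 0.76). None of these 12 passed the threshold for genotype in either tissue. All these r values share 1 set of arrays.

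The genes that lead to the members and follow them were examined as 5 lists, each gene by its brightest probe set. Over all 10766 genes, 0.873% were higher and 1.90% lower in Q111 striatum, 0.0929% and 0.353% in Q111 cerebellum, and 0.0372% and 0.0464% in the interaction. An unadjusted p under 0.05 was reached by 19.0%, 13.8% and 10.1% of all probe sets in these comparisons. That share was not counted over genes. Of 23 measured kinase and phosphatase genes upstream, among them those of the MAP kinase, CaM kinase and protein kinase A pathways, limma called 0 in striatum, in cerebellum and in the interaction, with 4, 4 and 3 at an unadjusted p under 0.05. Camk2a, the main synaptic CaM kinase, had the largest striatal difference (0.41, adjusted p = 0.114), and Prkar2b, a regulatory subunit of protein kinase A, the largest cerebellar one (-0.35, adjusted p = 0.176).

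Of 20 transcription factors and coactivators that induce immediate early genes, Mrtfa, a coactivator of SRF, rose in Q111 striatum (0.475, SE 0.11, limma adjusted p = 0.0265), and Elk4, an SRF partner, fell there (-0.35, SE 0.09, adjusted p = 0.0447). In cerebellum 0 of the 20 passed (2 at an unadjusted p under 0.05), 2 were positive and the median was -0.11 against -0.05 over all genes; Elk4 had -0.34 (adjusted p = 0.101). Of 16 partners and corepressors of the member proteins 0 passed in the 3 comparisons, with 3, 1 and 3 at an unadjusted p under 0.05. Their largest differences in striatum were those of Dlg4, the synaptic scaffold PSD-95 (1.18, SE 0.42, adjusted p = 0.119), and Nab2, a corepressor of Egr proteins (-0.27, adjusted p = 0.146).

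Of 24 other rapid response genes, Jun rose in striatum (0.51, SE 0.10, limma adjusted p = 0.00783), and Jund fell in striatum (-0.39, adjusted p = 0.0348) and in cerebellum (-0.48, adjusted p = 0.0275). Both encode subunits of AP-1. Jun passed as an interaction (0.88, SE 0.14, adjusted p = 0.00975), the one gene of the 5 lists that did by its brightest probe set. Nr4a2 did not pass by that measure, only by probe set 1450750_a_at. Of 27 delayed response and target genes, Crh, the gene of corticotropin-releasing hormone (0.80, SE 0.17, adjusted p = 0.016), and Nptx2, a secreted pentraxin of excitatory synapses (0.54, SE 0.13, adjusted p = 0.0308), rose in striatum, and Fam107b fell (-0.60, SE 0.15, adjusted p = 0.0308). In cerebellum and in the interaction 0 of the 27 passed. At an unadjusted p under 0.05 the 27 gave 9 in striatum, 4 in cerebellum and 9 in the interaction. The 24 other rapid response genes gave 4, 6 and 3. Between tissues of wild-type mice, 14, 12, 9, 13 and 14 genes of the 5 lists were higher in striatum and 5, 5, 4, 7 and 11 lower, where 32.1% of all genes were higher and 41.6% lower.

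Some single markers of other cells passed the threshold for genotype in striatum. In striatum all 10 measured cortex neuron markers read higher in Q111 and 2 passed, Neurod6 (1.12, limma adjusted p = 0.00345) and Fezf2 (0.71, adjusted p = 0.0132). Their mean level per array ran from 7.10 to 7.85 in wild type and from 7.33 to 8.32 in Q111. By an exact permutation test adjusted over 20 comparisons of marker levels, this cortex level did not pass (adjusted p = 0.124). With that level as a covariate, the striatal difference of Nr4a2 1450750_a_at was 0.42 (adjusted p = 0.424), that of 1455034_at -0.30, that of Arc -0.65 and that of Egr3 0.53 (adjusted p = 0.0585), with 0 members called. In striatum 3 of 8 microglia markers also rose (C1qa, C1qb and C1qc) and 1 fell (Aif1), and the endothelial marker Cldn5 fell (-0.73, adjusted p = 5.99e-04). In cerebellum the mean level of the cortex markers was 6.49 in wild type and 6.46 in Q111. As a covariate there it could shift a genotype difference little, and Nr4a2 1450750_a_at was at -1.26 (limma adjusted p = 0.00358).

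Beside the lower Nr4a2 of Q111 cerebellum, all 4 measured Purkinje cell markers were lower and 0 passed, with a mean level over markers of 13.20 in wild type and 13.05 in Q111 (SD 0.11 and 0.10, n = 6 each). All 3 measured endothelial markers were lower and 0 passed (5.28 to 5.72 against 5.13 to 5.44), as were 4 of 5 oligodendrocyte markers (10.15 to 10.50 against 10.03 to 10.29). Of 7 granule neuron markers 4 were higher, with mean levels of 12.02 to 12.60 in wild type and 12.21 to 12.49 in Q111. Of 8 microglia markers 6 were higher and 0 passed, with 3 at an unadjusted p under 0.05, and their mean level was 5.12 to 5.57 in wild type and 5.24 to 5.84 in Q111. C1qc, a complement gene, had the largest of these differences (0.85, limma adjusted p = 0.128). Of 6 astrocyte markers 5 were lower and 0 passed (11.09 to 11.45 against 11.11 to 11.31). The part of these shifts in the Nr4a2 difference was not tested.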

How the data were processed

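RNA of striatum and cerebellum was measured on 24 arrays. The authors' deposited values come from GCRMA, as the submitters' processing notes name it without a version. Their log base is not stated, and the deposited values were read as log2 expression. GCRMA corrects background by probe sequence, normalises across arrays and sums probes, so low values are compressed and their differences understated or unstable. Of 45101 probe sets 64 controls were left out, and 20738 (46.0%) averaged at least 4 in striatum or cerebellum. All 24 arrays entered 1 model with a mean per group (limma 3.58.1, R 4.3.3; 20 residual degrees of freedom, prior 3.22), with p-values adjusted by Benjamini-Hochberg across all kept probe sets and a threshold of 0.05; the model was tested on simulated data. Exact permutation tests were two-sided over arrays.

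The members and lists were chosen with earlier results of these data known. All probe sets of the members are named. From each list, up to 3 genes past the threshold, or otherwise up to 2 with the largest differences, are named. For the genes most like a member, the 3 with the highest r were taken. A gene with several probe sets is stood for by the brightest. The number of arrays limits the precision. The labels do not say whether replicate numbers pair the samples. Over all kept probe sets, deviations of same-numbered arrays correlated at -0.42 to 0.18. Between genotypes these r ran from -0.41 to -0.09 in striatum (median -0.19) and from -0.42 to 0.12 in cerebellum (median -0.11). Between tissues the medians were 0.08 in wild type and 0.04 in Q111. The effect of the negative values on p-values that treat arrays as independent was not tested. These r do not exclude shared deviations of single genes. With a replicate block the SE of the striatal Nr4a1 difference was 0.20, against 0.28 without. Promoter sequences are RefSeq's (GRCm38.p6); the files name no build. Alternatives covered filters, scaling, the variance prior, array weights, replicate numbers, number sets, the cortex covariate, the mean of a gene's probe sets and leaving out each array, and, chosen after seeing the data, a floor at 4.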

Additional observations from a re-analysis of the deposited data

Results flagged for a closer look

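In each of the 52 groups of 6 arrays (13 probe sets in 4 groups), the highest and lowest array were compared with the rest of the group. In 5 groups the gap from that array to its nearest neighbour, as a share of the whole range, was above Dixon's 95% critical value; chance gives about 1 in 20. Egr2 1427682_a_at read 8.03 on wild-type striatum array 1, with the next array at 6.80. Nr4a2 1433423_at, near the filter, read 3.61 on wild-type striatum array 6 (next 3.86) and 3.70 on wild-type cerebellum array 5 (next 4.12). Nr4a3 1438796_at read 4.87 on Q111 cerebellum array 2 (next 5.91). Npas4 1459372_at, under the filter in cerebellum, read 2.33 on wild-type cerebellum array 4 (next 1.39). The genotype difference of Nr4a2 1450750_a_at differed between the tissues, by 1.89 log2 in the interaction test.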

How the results depend on the processing

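Over 39 alternative settings, 2361 differences of single probe sets were recomputed; 2278 kept direction and side of the threshold, 11 lost it, 20 gained it and 52 turned sign, of which 25 came from settings other than leaving out an array. None of the differences that turned sign had passed the threshold. The 1 call in cerebellum became 2 with a filter at 5 or a trended prior and 3 with array weights, the cortex covariate, a threshold of 0.1 or values under 4 set to 4, the added ones all being Nr4a2; it became 0 with numbers 1 to 3 or 4 to 6 alone, with fewer arrays. Without 1 array it was 1 to 3: 3 without wild-type cerebellum 5 or Q111 striatum 4, and 2 without wild-type cerebellum 3, Q111 striatum 2 or Q111 striatum 5. The 0 calls in striatum became 1 at a threshold of 0.1 (Nr4a2) or with values under 4 set to 4 (Egr3). That floor removed the spread of Egr3 in cerebellum. Without 1 array the striatal calls were 0 to 1 (wild-type striatum 3 for Arc, Q111 striatum 4 for Nr4a2). The 1 interaction call became 0 with numbers 1 to 3 or 4 to 6 alone. The counts between tissues stayed within 1.5 times. With a replicate block Nr4a2 1450750_a_at had adjusted p of 0.0103 in cerebellum and 0.0447 in the interaction, while a model term for the number set gave 0.00627 and 0.0204; neither changed another member's call. Quantile normalisation and median centring, done over the kept probe sets alone, moved the median difference of those probe sets by less than 0.1. The alternatives given here instead scaled all probe sets but the controls before the filter. Signs turned as follows, and where no value above shows why, the cause was not tested. In cerebellum, Egr2 1427682_a_at (main value near 0) gave 0.0010 with quantile normalisation and 0.041 with array weights. With numbers 1 to 3 alone, striatum gave Egr2 1427682_a_at -0.14, Nr4a2 1433423_at -0.014 and Ier2 0.14, cerebellum gave Egr1 0.18, Egr2 1427682_a_at 0.14, Arc -0.10 and Npas4 0.042, and the interaction gave Egr2 1427682_a_at -0.28 and Nr4a1 -0.11. With numbers 4 to 6 alone, striatum gave Nr4a3 -0.40 and Npas4 0.081, cerebellum gave Egr2 1427683_at -0.075, and the interaction gave Egr1 0.26, Nr4a3 -0.11, Npas4 0.53 and Ier2 -0.0024. The cortex covariate in striatum gave Egr1 0.0015, Egr2 1427683_at 0.17, Nr4a2 1447863_s_at -0.33 and Nr4a2 1455034_at -0.30. The mean of both Egr2 probe sets gave -0.069 in striatum, 0.063 in cerebellum and -0.13 in the interaction. Ranges without 1 array that crossed 0 were, in striatum, Egr2 1427682_a_at -0.038 to 0.34, Nr4a2 1433423_at -0.021 to 0.055, Nr4a2 1447863_s_at -0.043 to 0.50 and Npas4 -0.47 to 0.059; in cerebellum, Egr1 -0.19 to 0.025 and Egr2 1427682_a_at -0.044 to 0.034; in the interaction, Egr2 1427682_a_at -0.034 to 0.34, Nr4a1 -0.017 to 0.32 and Npas4 -0.27 to 0.26; and between wild-type tissues Nr4a2 1455034_at -0.36 to 0.027. Values under 4 lie near background and have no dependable order.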
